A study of Mus musculus with 20 samples.

Results

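The change that went with treadmill exercise in the hippocampus was compared between mice of 5 and of 20 months. For each gene the treadmill-minus-control difference at 5 months was subtracted from the same difference at 20 months, and this interaction was tested. It needs all 4 groups of the study, so its members are 20 of the 20 libraries, 5 in each group, and 16945 of the 47729 gene rows passed the filter on low counts. Every mouse was a male of the C57BL/6 strain, a common inbred strain with no engineered allele named in the labels. The groups were controls of 5 months, treadmill mice of 5 months, controls of 20 months and treadmill mice of 20 months. The treadmill protocol (duration, speed, timing) is not given in the sources used here. Titles of the older mice hold the number 24, but the age label says 20 months and was followed.

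The hippocampus is the brain region that forms new episodic and spatial memories. Its pyramidal neurons lie in fields named CA1, CA2 and CA3, and its dentate gyrus holds granule neurons and is a place where new neurons are made in adult rodents. Running is widely studied there for its link to the growth factor BDNF, to new neurons and to blood vessels, and aging for its link to glial and immune genes. An interaction asks a different question from either. A gene scores high when the difference between exercise and rest is unlike in young and old mice, whatever its level at either age. The differences may be opposite in direction, present at a single age only, or alike in direction and unlike in size.

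Total counts ran from 17653438 to 34495780 per library, with a median of 24462242. Of the markers of the hippocampal fields, all 8 CA1 markers, all 9 CA2 and CA3 markers and all 8 granule neuron markers were detected. All measured markers of adjoining tissue and blood were detected as well, among them 9 thalamic ones. Detection alone therefore does not tell the hippocampus from tissue beside it. The 5 libraries with a choroid plexus score above 2 stood apart from the rest. Choroid plexus is the secretory epithelium of the brain ventricles beside the hippocampus, and the score is the mean over its 18 markers of log2 CPM (counts scaled to a fixed library total), centred for each gene. These 5 libraries scored 3.04 to 4.14 and the others at most -0.28. They were 1 control and 2 treadmill libraries at 5 months, and 1 control and 1 treadmill library at 20 months. They are called choroid-high below, and lists are also given without them. Only the numbers in the titles tell of separate mice, and what the p-values weigh is the spread among libraries.

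No gene was called for the interaction. In edgeR's quasi-likelihood test, with Benjamini-Hochberg adjustment over all 16945 genes and a threshold of 0.05, 0 genes passed (0% of those tested), and the smallest adjusted p was 0.99995. At an unadjusted p under 0.05 there were 328 genes, 1.94% of those tested, of which 191 had a positive interaction (1.13%) and 137 a negative one (0.808%). With no true difference in any gene, a share of about 0.05 would fall under that threshold on average. The share seen was smaller. The interaction had 0 called genes in DESeq2 as well, where 302 were under 0.05 before adjustment. Neither arm of the comparison had a called gene: 0% passed at 5 months and 0% at 20 months in edgeR's quasi-likelihood test, where 295 and 309 genes had an unadjusted p under 0.05. In DESeq2 these were 230 and 277, and it too called 0 in both arms. Everything below is therefore a description of levels and differences, none of which passed the test.

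The size of difference that these libraries could have hidden was set by the intervals. Of 14446 genes whose mean reached 1 CPM, 77.5% had a 95% interval of the interaction within 1.5-fold of no difference and 94.0% within 2-fold. The median SE of the interaction was 0.13 on the log2 scale, against 0.091 for treadmill at 5 months and 0.090 at 20 months. An interaction carries the error of 4 groups, so its intervals were wider than those of either age alone, of which 90.3% and 91.0% were within 1.5-fold. The median interaction over all genes was 0.0022, and the median treadmill difference was -0.0016 at 5 months and 0.0038 at 20 months. Over all genes 50.6% had a positive interaction, 49.1% a positive treadmill difference at 5 months and 51.9% at 20 months. The treadmill difference had opposite signs at the 2 ages in 56.7% of genes, split into 29.8% that were below control at 5 months and above it at 20, and 26.9% the other way round. These shares are the background for every list below.

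**Figure D1:**
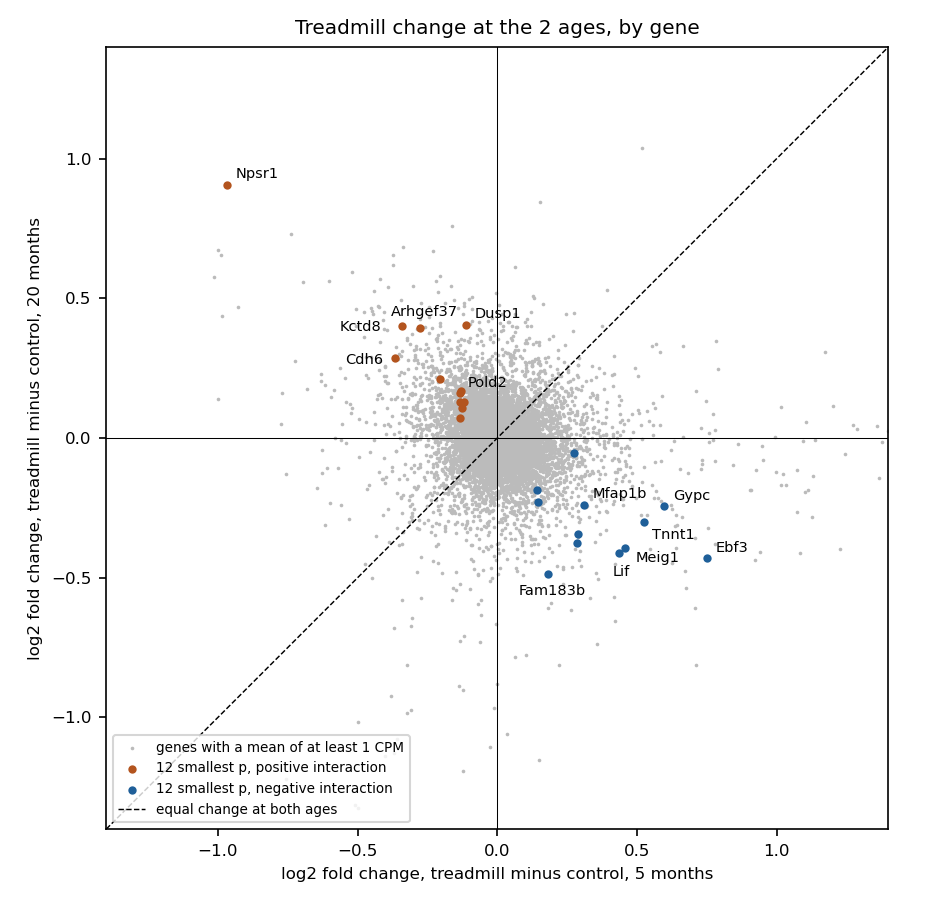
Treadmill-minus-control log2 fold change of each gene at 5 months (horizontal axis) and at 20 months (vertical axis), for genes whose mean reached 1 CPM. Points on the dashed line have equal values at both ages; the 12 genes with the smallest p and a positive interaction lie up and to the left of it, the 12 with a negative interaction down and to the right, and all 24 have opposite signs at the 2 ages.

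The 12 genes with the smallest p and a positive interaction were lower in treadmill mice than in controls at 5 months and higher at 20 months by their means. Cdh6 (ENSMUSG00000039385, chr15:13028701-13173675), a cadherin of cell-to-cell adhesion, measured 3.59, 4.25, 4.80, 4.96 and 3.68 CPM in the 5 control libraries of 5 months and 3.46, 3.22, 3.80, 3.52 and 2.49 CPM in the treadmill libraries. Its values at 20 months were 2.74, 2.68, 3.21, 3.31 and 3.09 CPM in controls and 3.75, 3.97, 3.32, 3.52 and 3.77 CPM in treadmill mice. Treadmill libraries were mostly the lower ones at 5 months, with overlap, and at 20 months all 5 lay above all 5 controls. Its interaction was 0.65 (SE 0.17, 95% interval 0.30 to 1.01), made of -0.37 at 5 months and 0.29 at 20 months, with an unadjusted p of 0.000985 and an adjusted p of 0.99995 in edgeR's quasi-likelihood test. Coordinates follow GENCODE M21 (GRCm38) and span the whole gene, exons and introns.

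Pold2 (ENSMUSG00000020471, chr11:5872180-5878292), an accessory subunit of DNA polymerase delta, measured 12.6 ± 0.625 CPM (mean ± SD, n = 5, as in all values of this form) in controls and 11.5 ± 0.598 CPM in treadmill mice at 5 months. At 20 months its controls measured 11.9, 11.6, 11.4, 11.9 and 11.5 CPM and its treadmill libraries 12.6, 13.1, 12.9, 12.96 and 13.6 CPM. The older treadmill libraries again all lay above the controls, by a small margin, and the interaction was 0.30 (SE 0.08, 95% interval 0.13 to 0.46). Arhgef37, a guanine nucleotide exchange factor of small GTPases, had the same arrangement at 20 months, 2.26 to 2.54 CPM against 1.42 to 2.01 CPM in controls, beside 1.04 to 1.56 CPM against 1.19 to 2.08 CPM at 5 months. Its interaction was 0.67 (SE 0.22, 95% interval 0.22 to 1.12). Over all genes the treadmill libraries lay wholly above the controls at 20 months in 0.0826% of genes and wholly below in 0.189%. At 5 months these shares were 0.1% above and 0.165% below. No gene (0%) had groups that did not overlap at both ages in opposite directions.

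Of the 12, 3 encode receptors or their subunits. Npsr1, the receptor of neuropeptide S, measured 1.30, 2.003, 1.95, 1.45 and 0.252 CPM in controls and 0.9004, 0.805, 0.595, 0.693 and 0.520 CPM in treadmill mice at 5 months. The older libraries were at 1.37, 0.507, 0.596, 1.51 and 1.32 CPM in controls and 3.17, 0.878, 2.78, 1.45 and 1.66 CPM in treadmill mice. The groups overlapped at both ages, and its interaction of 1.87 (SE 0.58, 95% interval 0.66 to 3.09) was the widest in error of the 12. Kctd8, an auxiliary subunit of GABA-B receptors, had an interaction of 0.74 (SE 0.22, 95% interval 0.28 to 1.20), which was 0.60 without replicate 1 of the older treadmill group. Thrb, the beta receptor of thyroid hormone, had 0.26 with means of 49.5 ± 4.13 and 45.1 ± 2.93 CPM in control and treadmill mice at 5 months. At 20 months its means were 46.7 ± 2.89 and 51.1 ± 1.48 CPM.

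A further 4 of the 12 had interactions between 0.20 and 0.30. They were Nhlrc1, the ubiquitin ligase malin, Hmgcll1, a lyase related to that of ketone body synthesis, Uchl5, a deubiquitinase of the proteasome, and Uckl1, a kinase of uridine and cytidine. Their levels were steady, with SDs of 0.366 to 0.514 CPM on means of 12.9 to 14.2 CPM for Nhlrc1. A small difference in such genes gave a small p, and none passed the adjusted threshold. Dusp1, also of the 12, is described with the immediate early genes.

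The 12 genes with the smallest p and a negative interaction had the reverse order of means at each age. Mfap1b, a splicing factor, measured 2.65, 3.19, 2.96, 3.41 and 2.92 CPM in controls and 3.66, 4.18, 3.20, 3.46 and 4.28 CPM in treadmill mice at 5 months. Older mice had 3.70, 3.18, 4.14, 3.31 and 3.63 CPM in controls and 3.12, 3.37, 3.14, 2.65 and 2.93 CPM in treadmill mice. Treadmill libraries tended to be the higher ones in the young and the lower ones in the old, with overlap at each age. Its interaction was -0.55 (SE 0.16, 95% interval -0.87 to -0.23). Mfap1a is a near-identical copy of this gene, so the division of reads between the copies is uncertain.

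Tnnt1, the slow skeletal form of troponin T that is also found in some neurons, measured 0.936, 0.858, 1.72, 0.902 and 0.957 CPM in controls and 1.60, 1.58, 1.78, 1.49 and 1.33 CPM in treadmill mice at 5 months. In older mice its values were 1.72, 1.63, 1.34, 1.402 and 1.61 CPM in controls and 1.34, 1.25, 1.28, 1.06 and 1.31 CPM in treadmill mice. One young control, replicate 3, stood with the treadmill libraries, and at 20 months all 5 treadmill libraries lay below all 5 controls, the nearest pair by less than the rounding shown. Its interaction was -0.83 (SE 0.24, 95% interval -1.32 to -0.33), and -1.08 without that control. Amn1, related to a yeast regulator of mitotic exit, also had its older treadmill libraries, 10.3 to 11.3 CPM, below all controls, 11.6 to 13.1 CPM, with an interaction of -0.33.

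Gypc, glycophorin C of the red cell membrane, and Pcgf1, a Polycomb group protein, had their groups apart at 5 months instead. Gypc measured 1.54, 1.996, 1.65, 1.65 and 1.79 CPM in the young treadmill mice and 0.884, 1.19, 1.01, 1.45 and 1.16 CPM in their controls. Its older libraries overlapped widely, 0.867 to 1.89 CPM against 1.08 to 2.03 CPM, and the interaction was -0.84 (SE 0.29, 95% interval -1.45 to -0.23). Pcgf1 measured 7.69 to 8.96 CPM in young treadmill mice against 6.41 to 7.37 CPM, and 6.79 to 8.78 against 7.73 to 9.21 CPM at 20 months, with an interaction of -0.33. In both genes the difference at 5 months carried most of the interaction.

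Meig1 and Fam183b are both linked to cilia and flagella. Meig1, best known from the forming sperm tail, had an interaction of -0.85 (SE 0.24, 95% interval -1.35 to -0.35) with means of 1.38 ± 0.373 and 1.88 ± 0.274 CPM in controls and treadmill mice at 5 months. At 20 months its means were 1.97 ± 0.348 and 1.51 ± 0.184 CPM. Fam183b, a gene of ciliated cells, had -0.67 (SE 0.22, 95% interval -1.14 to -0.20), made of 0.18 at 5 months and -0.49 at 20 months. The remaining genes were the facilitated glucose transporter Slc2a10 (-0.66), the peroxisome division factor Pex11a (-0.37), the neuronal transcription factors Nhlh2 (-0.63) and Ebf3 (-1.18), and the cytokine Lif (-0.85). Ebf3 was -0.89 without replicate 1 of the older controls and -1.49 without replicate 1 of the older treadmill mice, both choroid-high libraries. Without all 5 choroid-high libraries it was -1.18, the same as with all 20 libraries. The part of choroid plexus in these values was not tested.

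All 24 genes had opposite signs at the 2 ages, a share that choice by the smallest interaction p favours. The groups did not overlap at 5 months in 3 of the 24 and at 20 months in 5, which the same choice favours. Over all genes the treadmill libraries lay wholly above in 0.1% and wholly below in 0.165% at 5 months. At 20 months these shares were 0.0826% and 0.189%. The gene next in order beyond the 12 positive ones was Cntn4, a contactin of neuronal adhesion, with 0.53 and an unadjusted p of 0.00735, against 0.0069 for Uckl1, the last inside. Beyond the 12 negative ones it was Hba-a1, a haemoglobin chain, with -1.63 and an unadjusted p of 0.0120, against 0.0108 for Lif.

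**Figure D2:**
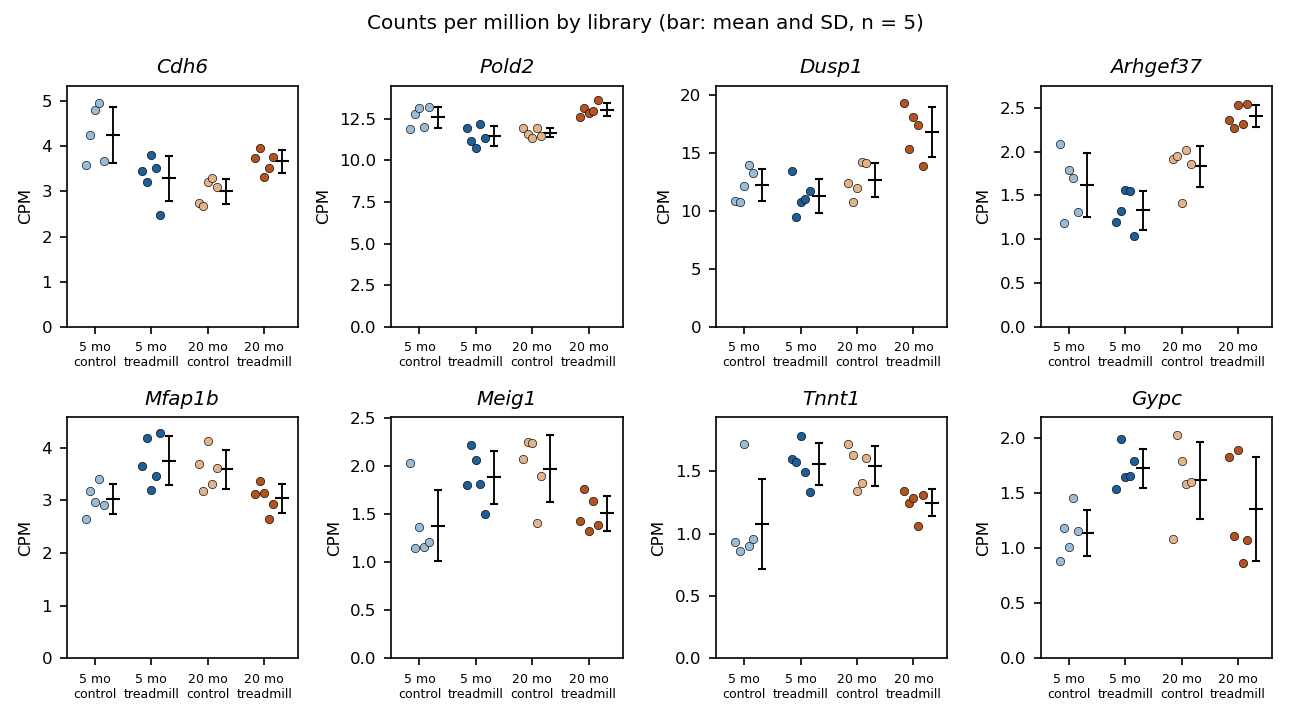
CPM in each library of 8 of the genes with the smallest interaction p, by group, with the mean and SD of 5 libraries as a bar beside the points. In the upper row (Cdh6, Pold2, Dusp1, Arhgef37) the treadmill mean is below the control mean at 5 months and above it at 20 months, and in the lower row (Mfap1b, Meig1, Tnnt1, Gypc) the order is the reverse.

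Immediate early genes are switched on within minutes of neuronal firing, through factors such as CREB, which binds the cyclic AMP response element TGACGTCA, and their level reads recent activity. Of 27 measured, 22 of 27 had a positive interaction, against 50.6% of all genes, with a median of 0.17, against 0.0022 over all genes. Their median treadmill difference was -0.018 at 5 months and 0.19 at 20 months, and 25 of 27 were higher in treadmill mice at 20 months against 12 of 27 at 5 months. In all, 14 of 27 were below control at 5 months and above it at 20, and 1 the other way round. Over all genes these shares were 29.8% and 26.9%. Such genes are switched on together, so the members are not independent of each other. Only 2 of 27 had an interaction p under 0.05 before adjustment, and none passed after it. The median was 0.16 without those 5 choroid-high libraries and ran from 0.13 to 0.23 when each library was left out.

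Dusp1 (ENSMUSG00000024190, chr17:26505590-26562128), a phosphatase that shuts off MAP kinases, had the smallest p of the list. It measured 10.9, 10.8, 12.2, 13.98 and 13.2 CPM in controls and 13.4, 9.50, 10.7, 11.03 and 11.7 CPM in treadmill mice at 5 months. In the older mice it measured 12.4, 10.7, 11.97, 14.2 and 14.1 CPM in controls and 19.3, 15.3, 18.04, 17.4 and 13.9 CPM in treadmill mice. Young groups overlapped almost fully, and at 20 months 4 treadmill libraries were above every control while 1 was inside their range. The interaction was 0.52 (SE 0.15, 95% interval 0.20 to 0.83) with an unadjusted p of 0.00267. Trib1, a pseudokinase that guides protein degradation, measured 8.87 ± 0.837 CPM in controls and 10.8 ± 1.29 CPM in treadmill mice at 20 months, beside 8.13 ± 0.835 and 7.93 ± 0.562 CPM at 5 months, an interaction of 0.31 (SE 0.14, 95% interval 0.033 to 0.59).

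The transcription factor Npas4, induced by calcium entry in neurons, measured 4.91, 6.22, 8.61, 9.39 and 6.18 CPM in older controls and 7.63, 9.15, 14.3, 13.01 and 6.43 CPM in older treadmill mice. Its young means were 8.20 ± 1.17 and 8.19 ± 0.778 CPM, so the interaction of 0.52 (SE 0.28, 95% interval -0.056 to 1.10) came from the 20-month mice. Per1, a clock gene that is also an immediate early gene, had 0.27 (SE 0.13, 95% interval -0.0063 to 0.55). Fos, a subunit of the AP-1 factor, had 0.30 (SE 0.40, 95% interval -0.53 to 1.14) with older treadmill libraries at 11.3, 11.2, 6.13, 5.88 and 4.62 CPM against 7.91, 4.31, 6.97, 6.69 and 6.43 CPM in controls. Arc, which governs removal of AMPA receptors from synapses, had 0.31 (SE 0.32, 95% interval -0.36 to 0.99). The intervals of these 4 genes included 0, and in Fos and Arc single libraries within a group differed more than the group means did. Fos was 0.083 without replicate 5 of the young controls and Arc 0.12 without replicate 5 of the young controls.

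The score of the list, computed as for the choroid plexus markers, was -0.24, -0.046, -0.11, 0.02 and 0.13 in the 5-month controls and 0.11, -0.16, -0.16, -0.11 and 0.11 in the 5-month treadmill libraries. At 20 months it was -0.094, -0.20, 0.025, 0.012 and 0.018 in controls and 0.15, 0.33, 0.20, 0.10 and -0.093 in treadmill mice. Of the older treadmill scores 4 lay above every older control and 1 inside their range. The time between the last session and tissue collection is not given in the sources used here.

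The promoters of the list were searched for TGACGTCA, which reads the same on both strands, in RefSeq windows of GRCm38.p6 from 250 bases before to 50 bases after the start site. A window was given for 20 of the 27 genes, and 3 held the element, against 549 of 27025 genes (2.03%) and 588 of 32851 windows (1.79%) in all. They are shown because Dusp1 led the list, with the element in capitals and its first base 26 (Arl4d), 166 (Btg2) and 143 (Dusp1) bases before the start site. Arl4d, a small GTPase, lies at chr11:101665291-101665590 on the plus strand, Btg2, an antiproliferative cofactor, at chr1:134079106-134079405 on the minus strand, and Dusp1 at chr17:26508423-26508722 on the minus strand.
Arl4d: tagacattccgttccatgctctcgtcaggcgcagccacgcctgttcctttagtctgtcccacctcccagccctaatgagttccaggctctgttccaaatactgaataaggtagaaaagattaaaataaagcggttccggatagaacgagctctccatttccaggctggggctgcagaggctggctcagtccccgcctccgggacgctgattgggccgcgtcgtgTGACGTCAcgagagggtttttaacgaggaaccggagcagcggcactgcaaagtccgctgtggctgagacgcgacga
Btg2: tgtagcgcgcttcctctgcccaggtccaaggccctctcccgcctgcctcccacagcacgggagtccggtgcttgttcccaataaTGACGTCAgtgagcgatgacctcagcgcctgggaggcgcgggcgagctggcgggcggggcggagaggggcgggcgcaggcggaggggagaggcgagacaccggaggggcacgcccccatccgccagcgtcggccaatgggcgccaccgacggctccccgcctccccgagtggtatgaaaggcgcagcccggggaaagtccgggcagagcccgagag
Dusp1: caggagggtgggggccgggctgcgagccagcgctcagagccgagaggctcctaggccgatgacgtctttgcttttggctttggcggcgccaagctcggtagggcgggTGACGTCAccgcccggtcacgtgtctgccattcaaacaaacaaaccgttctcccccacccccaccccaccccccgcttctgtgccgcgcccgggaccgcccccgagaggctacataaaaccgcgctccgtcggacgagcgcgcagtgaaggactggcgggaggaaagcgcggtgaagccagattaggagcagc
A match is a description of these letters and not a measured binding site.

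Genes named most often in work on exercise had small interactions. Bdnf, the neurotrophin, measured 40.6, 42.6, 46.5, 47.9 and 40.9 CPM in controls and 47.7, 45.8, 45.5, 44.9 and 61.2 CPM in treadmill mice at 5 months. Its values at 20 months were 38.5, 49.1, 57.9, 40.4 and 45.9 CPM in controls and 31.0, 51.9, 44.3, 52.4 and 43.9 CPM in treadmill mice. One young treadmill library, replicate 5, was above all others of its age, and the groups otherwise overlapped, with an interaction of -0.22 (SE 0.18, 95% interval -0.59 to 0.16). Its receptor Ntrk2 had -0.036 (SE 0.083, 95% interval -0.21 to 0.14), the growth factor Igf1 -0.05 (SE 0.11, 95% interval -0.28 to 0.19) and the vascular growth factor Vegfa -0.12 (SE 0.11, 95% interval -0.36 to 0.12). For Ntrk2, Igf1 and Vegfa the interval excluded differences of 1.5-fold or more between the ages. Ppargc1a, a coactivator of mitochondrial genes, had 0.12 (SE 0.10, 95% interval -0.084 to 0.33), and the secreted peptide precursor Vgf 0.23 (SE 0.23, 95% interval -0.26 to 0.71).

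In the list of neurotrophic and exercise-linked factors 8 of 17 tested members had a positive interaction and the median was -0.023. Nrg1, a ligand of ErbB receptors, had the smallest p with 0.38 (SE 0.23, 95% interval -0.088 to 0.85). Among adult neurogenesis genes 9 of 19 were positive with a median of -0.033. Dcx, a microtubule protein of newborn neurons, measured 24.3 ± 4.68 and 22.01 ± 1.55 CPM in control and treadmill mice at 5 months and, in the same order, 16.9 to 24.6 CPM and 16.2 to 31.4 CPM as ranges at 20 months, an interaction of 0.33 (SE 0.22, 95% interval -0.12 to 0.78). Stmn1, a tubulin-binding protein of growing neurons, had 0.46 (SE 0.22, 95% interval 0.01 to 0.91), the proneural factor Neurog2 0.55 (SE 0.27, 95% interval -0.0089 to 1.12), and Neurod1, a factor of granule neuron differentiation, -0.086 (SE 0.14, 95% interval -0.37 to 0.20). These members did not share a sign, and both list medians took either sign when libraries were left out. Without the choroid-high libraries they were 0.011 and -0.032.

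Lists of synaptic transmission had medians just above 0. Glutamate receptors had a positive interaction in 15 of 22 members with a median of 0.075, made of -0.047 at 5 months and 0.016 at 20. The smallest p were those of the metabotropic receptors Grm4, with 0.89 (SE 0.44, 95% interval -0.037 to 1.82), and Grm8, with 0.76 (SE 0.38, 95% interval -0.047 to 1.56), whose older treadmill libraries measured 15.2, 7.07, 9.20, 8.82 and 8.05 CPM against 9.40, 3.58, 5.59, 9.57 and 6.34 CPM in controls. Synaptic vesicle proteins had 14 of 17 positive and a median of 0.10. Snap25, a fusion SNARE, had 0.12 (SE 0.091, 95% interval -0.069 to 0.31), while Cplx2, a complexin that clamps fusion, had -0.24 (SE 0.12, 95% interval -0.49 to 0.013). The abundant Snap25 measured 2597 ± 203 and 2494 ± 91.3 CPM at 5 months and 2534 ± 129 and 2644 ± 134 CPM at 20, control first, so treadmill and control means differed by less than the SD of the controls at either age. Without the choroid-high libraries the glutamate receptor median was 0.15 and the vesicle median 0.16. Over removals of single libraries the glutamate receptor median ran from 0.028 to 0.11, the lowest without replicate 2 of the older controls. The vesicle median ran from 0.028 to 0.14, the lowest without replicate 2 of the older controls.

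Inhibitory transmission was measured by GABA receptor subunits, 10 of 14 positive with a median of 0.022, and by interneuron markers, 8 of 10 positive with a median of 0.18. Gad1, the enzyme that makes GABA, had 0.21 (SE 0.17, 95% interval -0.14 to 0.56), the peptide Sst 0.16 (SE 0.13, 95% interval -0.12 to 0.44) and the peptide Vip 0.31 (SE 0.18, 95% interval -0.068 to 0.69). These 3 intervals included 0. The GABA receptor median changed sign in 9 of the 27 alternatives, over -0.029 to 0.054 with single libraries removed, and was 0.047 without the choroid-high libraries. The interneuron median was 0.21 without them and, with single libraries removed, 0.10 to 0.22, the lowest without replicate 2 of the young controls. Receptors of monoamines and acetylcholine had 15 of 20 positive and a median of 0.11, with the beta-1 adrenergic receptor Adrb1 at 0.32 (SE 0.13, 95% interval 0.058 to 0.58) and the serotonin receptor Htr1b at 0.41 (SE 0.20, 95% interval -0.0018 to 0.82). Their median was 0.19 without the choroid-high libraries and 0.043 to 0.18, the lowest without replicate 2 of the young treadmill mice, with single libraries removed. For neuropeptide precursors the median was 0.04, 8 of 16 being positive, Nts, the precursor of neurotensin, having 0.72 (SE 0.39, 95% interval -0.10 to 1.53). That median was 0.14 without the choroid-high libraries and took either sign, -0.068 to 0.09, over single removals.

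Auxiliary subunits of potassium channels had a positive interaction in 9 of 13 tested members, against 50.6% of all genes, with a median of 0.10. Kcne4, which damps several such channels, measured 0.701, 0.651, 0.522, 1.01 and 0.618 CPM in older controls and 1.34, 0.970, 1.14, 1.01 and 1.73 CPM in older treadmill mice. At 5 months its means were 0.906 ± 0.128 and 0.725 ± 0.229 CPM. Its interaction was 1.10 (SE 0.32, 95% interval 0.44 to 1.77), with a p of 0.00228 before adjustment, and its mean lay below the 1 CPM required of the 24 genes above. Kcnab3, a cytoplasmic beta subunit, had 0.53 (SE 0.24, 95% interval 0.035 to 1.03). Cadherins had 16 of 19 positive, against 50.6% of all genes, and a median of 0.14. The cadherin list holds Cdh6, and it and the potassium subunit list were chosen with earlier results of these data known. Beside Cdh6, Cdh7 had 0.47 (SE 0.18, 95% interval 0.10 to 0.83) and Cdh22 0.22 (SE 0.095, 95% interval 0.028 to 0.42). Cdh7 measured 8.96, 7.35, 7.05, 9.64 and 8.73 CPM in older controls and 11.1, 9.47, 12.8, 11.03 and 8.82 CPM in older treadmill mice, with the highest controls inside the treadmill range. The potassium subunit median was 0.02, with 7 of 13 positive, without the choroid-high libraries, and single removals gave 0.05 to 0.15, the lowest without replicate 4 of the young controls. For cadherins the same values were 0.19 and 0.047 to 0.18, the lowest without replicate 2 of the young controls.

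Markers of the hippocampal fields had medians of different sign. CA1 markers had a positive interaction in 7 of 8, with a median of 0.20, made of -0.068 at 5 months and 0.13 at 20. Granule neuron markers of the dentate gyrus had 0 of 8 positive and a median of -0.35: all 8 were above control at 5 months (median 0.11) and below it at 20 months (median -0.21), against 26.9% of all genes. Without the choroid-high libraries the CA1 median was 0.24 and the granule neuron median -0.32, with 1 of 8 positive. Single removals gave 0.12 to 0.26, the lowest without replicate 3 of the young controls, for CA1. For granule neurons they gave -0.48 to -0.20, the highest without replicate 3 of the older controls. None of these CA1 or granule neuron markers had an unadjusted p under 0.05. Members of such a list share cells, so they are not independent of each other. In bulk tissue, fewer cells of a type in the sample, for whatever reason, and less RNA per cell cannot be told apart.

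Prox1, the transcription factor that sets granule neuron identity, measured 139, 99.4, 101, 139 and 189 CPM in controls and 124, 143, 157, 138 and 151 CPM in treadmill mice at 5 months. The older libraries were at 110.4, 156, 184, 92.0 and 111 CPM in controls and 84.6, 99.4, 95.7, 113 and 139 CPM in treadmill mice. Controls of both ages were the more spread, and their ranges held all treadmill libraries but 1. Its interaction was -0.39 (SE 0.27, 95% interval -0.96 to 0.19). Dsp, the desmosomal protein desmoplakin, had -0.53 (SE 0.36, 95% interval -1.30 to 0.24) and Il16, a cytokine precursor, -0.24 (SE 0.19, 95% interval -0.64 to 0.15). Prox1 and Dsp were -0.24 and -0.29 without replicate 3 of the older controls. On the CA1 side Ccn3, a matrix protein, had 0.30 (SE 0.17, 95% interval -0.068 to 0.66).

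The granule neuron score was 0.053, -0.33, -0.13, 0.085 and 0.44 in young controls and -0.0035, 0.038, 0.28, 0.18 and 0.27 in young treadmill mice. At 20 months it was -0.23, 0.25, 0.55, -0.40 and -0.15 in controls and -0.48, -0.23, -0.25, -0.075 and 0.14 in treadmill mice. Control libraries of 1 age differed from each other by more than the group means did. The CA1 score was -0.25, -0.0065, 0.21, 0.089 and -0.05 in young controls and 0.0077, -0.19, -0.20, 0.0084 and 0.017 in young treadmill mice, and -0.22, -0.07, -0.12, 0.21 and 0.0097 and -0.046, 0.27, 0.29, 0.066 and -0.015 in the older groups in the same order. Summed CA1 markers were 720.3 to 998 CPM in young controls, 775 to 871 CPM in young treadmill mice, 758 to 1015 CPM in older controls and 830.0 to 1014 CPM in older treadmill mice. Summed granule neuron markers were 341 to 623, 429.6 to 549.6, 324 to 663 and 319.7 to 480.4 CPM in the same order. Treadmill minus control, the mean CA1 score was -0.07 and 0.15 at 5 and 20 months. Negative at 5 and positive at 20 months were also the score differences of glutamate receptors (-0.071 and 0.073), GABA receptors (-0.036 and 0.011), interneuron markers (-0.072 and 0.088), vesicle proteins (-0.043 and 0.032) and monoamine and acetylcholine receptors (-0.047 and 0.065). Those of neuropeptide precursors (0.048 and 0.035), adult neurogenesis genes (0.0077 and -0.061), potassium channel subunits (0.039 and 0.095) and cadherins (0.023 and 0.11) had other signs. Lists beyond synaptic transmission were negative at 5 and positive at 20 months too. They were circadian clock genes (-0.073 and 0.052), heat shock proteins (-0.0021 and 0.092) and glycolysis and lactate transport genes (-0.015 and 0.059). Thalamic markers (-0.0041 and 0.066) and DNA replication genes (-0.022 and 0.00046) also had these signs, and the remaining lists had others. The part of CA1 in these values was not tested.

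Markers of CA2 and CA3 had 2 of 9 positive and a median of -0.12, which was 0.00072 without those 5 choroid-high libraries. Iyd had -0.47 (SE 0.27, 95% interval -1.04 to 0.09) and Bok, a member of the BCL2 family, -0.23 (SE 0.20, 95% interval -0.64 to 0.18). Thalamic markers, which tell of tissue beneath the hippocampus, had 3 of 9 positive and a median of -0.065, 0.03 without those libraries. Their median treadmill difference was -0.021 at 5 months and 0.018 at 20. Their score differences were -0.0041 and 0.066, so the sign of the list depended on the summary used. Slc17a6, the vesicular glutamate transporter of thalamic neurons, measured 14.98, 14.96, 26.8, 30.2 and 8.36 CPM and 18.5, 13.9, 11.4, 17.8 and 11.8 CPM in young control and treadmill mice. Older controls had 21.4, 11.4, 9.21, 27.8 and 10.5 CPM and older treadmill mice 31.0, 13.4, 32.2, 23.8 and 26.5 CPM. Its libraries differed more within each control group than the group means did, and the interaction was 1.03 (SE 0.51, 95% interval -0.034 to 2.10). Synpo2, an actin-binding protein, had -0.31 (SE 0.15, 95% interval -0.61 to 0.0019).

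**Figure D3:**
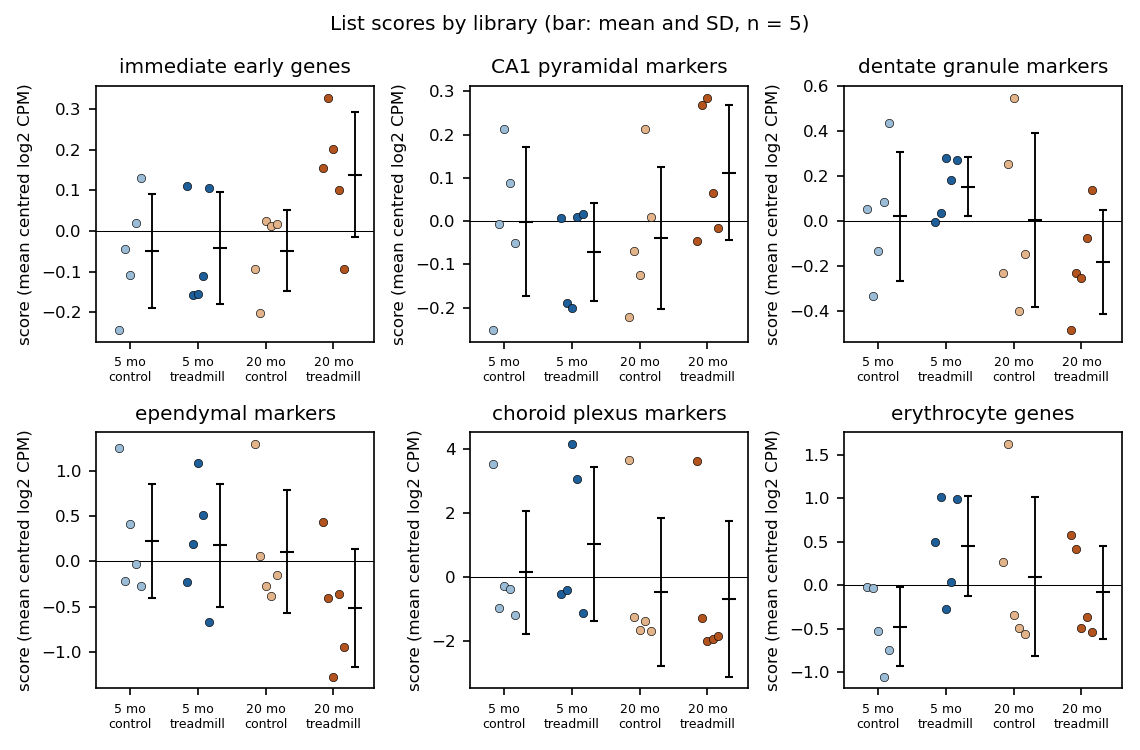
Score of 6 gene lists in each library (mean over members of log2 CPM centred per gene), by group, with the mean and SD of 5 libraries as a bar beside the points. Immediate early gene and CA1 scores are highest on average in the older treadmill mice, granule neuron, ependymal and erythrocyte scores are lower there than in young treadmill mice, and the choroid plexus score separates 5 single libraries of 3.04 to 4.14 from all others.

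Lists of tissue at the border of the hippocampus and of blood had medians among the most negative. Ependymal markers, genes of the ciliated ventricular lining, had 0 of 14 positive and a median of -0.56, made of 0.00089 at 5 months and -0.53 at 20. The median was -0.35 without the choroid-high libraries and ran from -0.995 to -0.055, the highest without replicate 1 of the older controls, as each library was left out. Ccdc153, a gene of motile cilia, measured 7.36, 4.31, 2.05, 2.80 and 3.71 CPM in older controls and 1.96, 2.402, 0.535, 1.93 and 1.39 CPM in older treadmill mice. At 5 months its values were 6.19, 2.41, 4.80, 3.16 and 3.07 CPM and 2.41, 4.12, 2.65, 2.93 and 1.62 CPM, and its interaction was -0.83 (SE 0.52, 95% interval -1.91 to 0.26). Treadmill means were below control means at both ages in this gene, more so at 20 months. Ak7, an adenylate kinase of cilia, had -1.08 (SE 0.76, 95% interval -2.67 to 0.51). Summed ependymal markers were 31.5 to 83.0 CPM and 25.0 to 77.5 CPM in young control and treadmill mice, and 30.1 to 85.2 CPM and 17.4 to 52.5 CPM in the older.

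Choroid plexus markers had 0 of 18 positive and a median of -1.08, made of 1.01 at 5 months, where 2 treadmill libraries but 1 control were high, and -0.044 at 20 months, where 1 of each was. The median was -0.18 without the 5 high libraries and -4.76 to 2.22 over the removals of single libraries, the lowest without replicate 1 of the older treadmill group and the highest without replicate 1 of the older controls. Kl, klotho, a coreceptor of the hormone FGF23, measured 149, 22.6, 34.7, 30.8 and 32.4 CPM and 29.5, 25.9, 273, 133 and 28.5 CPM in young control and treadmill mice. In older mice its values were 175, 30.9, 29.97, 22.8 and 28.6 CPM and 178, 31.7, 21.9, 26.4 and 27.6 CPM. Kl was at 133 CPM or more in the 5 libraries with a high score and at most at 34.7 CPM in the others, and its interaction was -0.88 (SE 1.24, 95% interval -3.52 to 1.75). Enpp2, the secreted lysophospholipase autotaxin, followed the same libraries, at 1597 CPM or more in those 5 and at most 281 CPM in the others, with -1.25 (SE 1.67, 95% interval -4.79 to 2.28), and 0.29 without those 5. Leptomeningeal fibroblast markers had 0 of 12 positive and a median of -0.33, Islr, a secreted protein of fibroblasts, having -0.37 (SE 0.28, 95% interval -0.94 to 0.20). Their median was -0.42 without the 5 libraries and ran from -0.63 to -0.10, the highest without replicate 1 of the older controls, as each library was left out.

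Erythrocyte genes, which tell of blood left in the tissue, had 0 of 5 positive and a median of -1.35, made of 0.94 at 5 months and -0.41 at 20 months. All 5 were above control at 5 months and below it at 20, against 26.9% of all genes. An unadjusted p under 0.05 was found in 3 of 5, against 1.94% of all genes. These genes share a source in blood, so they are not independent of each other. Hba-a1, an alpha chain of haemoglobin, measured 4.52, 5.60, 3.43, 2.05 and 2.97 CPM in young controls and 8.28, 10.9, 5.03, 6.66 and 12.8 CPM in young treadmill mice. In the older mice it measured 7.14, 18.3, 4.70, 3.88 and 4.90 CPM and 8.79, 8.04, 3.96, 4.82 and 4.04 CPM. Young treadmill libraries were mostly above their controls, and 1 older control, replicate 2, was above all other libraries. Its interaction was -1.63 (SE 0.58, 95% interval -2.85 to -0.40), and -1.04 without that control. Hba-a2 had -1.30 (SE 0.60, 95% interval -2.56 to -0.036), but reads of these near-identical copies cannot be divided with certainty, and Alas2, the first enzyme of haem synthesis in red cells, had -1.15 (SE 0.47, 95% interval -2.12 to -0.17).

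Without replicate 2 of the older controls the interactions of Hba-a2 and Alas2 were both -0.64. The erythrocyte median was -0.68 without that library and -2.06 without those 5 choroid-high libraries. Summed erythrocyte genes were 23.3 to 47.7 CPM and 34.7 to 98.2 CPM in young control and treadmill mice, and 32.1 to 151 CPM and 31.0 to 72.0 CPM in the older. Gypc, described above, is a red cell gene too and had the same signs; the part of blood in its value was not tested. Of 10 lymphocyte genes 5 were tested, 1 of them positive, with a median of -0.65, -0.89 without the choroid-high libraries. Igkc, the constant part of the kappa antibody chain, measured 0.572, 0.204, 0.0780, 0 and 0.302 CPM and 0.436, 0.451, 0.275, 1.87 and 0.289 CPM in young control and treadmill mice, and its interaction was -3.28 (SE 1.25, 95% interval -5.90 to -0.65). Its values at 20 months were 2.07, 4.49, 0.857, 0.360 and 0.288 CPM and 1.25, 0.231, 0.107, 0.241 and 0.539 CPM, so single libraries carried most of the transcript. Cd79b, a chain of the B cell receptor complex, had -1.02 (SE 0.52, 95% interval -2.10 to 0.056).

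Glial and vascular lists had medians nearer to 0. Microglia markers had 2 of 17 positive and a median of -0.084, made of 0.072 at 5 months, where 15 of 17 were above control, and -0.018 at 20. Itgam, an integrin of microglia, had -0.24 (SE 0.14, 95% interval -0.54 to 0.061), Csf1r, the receptor that keeps microglia alive, -0.15 (SE 0.10, 95% interval -0.35 to 0.063), and the lysosomal Cd68 -0.12 (SE 0.16, 95% interval -0.46 to 0.22). Astrocyte markers had 3 of 12 positive and a median of -0.083, with the transcription factor Sox9 at -0.28 (SE 0.19, 95% interval -0.68 to 0.12) and the filament protein Gfap at 0.018 (SE 0.26, 95% interval -0.52 to 0.56). Without those 5 choroid-high libraries these medians were -0.24 and -0.20, and without replicate 2 of the young treadmill mice -0.0075 and -0.013. C4b, a complement component, measured 31.5 ± 3.76 and 30.9 ± 6.15 CPM at 5 months and 85.4 ± 29.1 and 90.8 ± 41.7 CPM at 20, control first, with an interaction of 0.11 (SE 0.38, 95% interval -0.69 to 0.91).

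Oligodendrocyte and myelin genes were below control in treadmill mice at both ages, with 1 of 17 positive at each, medians of -0.11 and -0.13, and a median interaction of 0.019. Mbp, a main myelin protein, measured 2529 ± 535 and 2401 ± 591 CPM at 5 months and 2839 ± 695 and 2517 ± 443 CPM at 20 months, control first. Mag, an adhesion protein of the myelin sheath, measured 134 ± 25.3 and 119 ± 28.2 CPM at 5 months and 142 ± 20.02 and 137 ± 19.1 CPM at 20 months in the same order, with an interaction of 0.12 (SE 0.22, 95% interval -0.35 to 0.59). Mural cell and endothelial markers shared a sign between the ages too, with medians of 0.12 and 0.19 for mural cells and 0.10 and 0.15 for endothelium. Kdr, the main receptor of Vegfa, had -0.054 (SE 0.29, 95% interval -0.67 to 0.56) and Emcn, a venous sialomucin, -0.38 (SE 0.23, 95% interval -0.85 to 0.086). The median interaction was 0.058 for mural cells and 0.065 for endothelium. Without the choroid-high libraries the medians were 0.11 for myelin, 0.25 for mural cells and 0.22 for endothelium. Each of the 3 took either sign when single libraries were left out, over -0.10 to 0.10, -0.063 to 0.14 and -0.033 to 0.17. Oligodendrocyte precursor markers had a median of -0.0067, -0.011 without the choroid-high libraries, and either sign over single removals.

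Lists of cellular stress had small positive medians. Heat shock proteins had 11 of 14 positive and a median of 0.11, and all 14 were above control at 20 months against 5 of 14 at 5 months; the mitochondrial chaperonin Hspd1 had 0.11 (SE 0.068, 95% interval -0.031 to 0.25). Unfolded protein and integrated stress response genes had 14 of 19 positive and a median of 0.089, and their factor Xbp1 had 0.26 (SE 0.15, 95% interval -0.055 to 0.57). Circadian clock genes had 13 of 17 positive and a median of 0.13. Hlf, an output factor of the clock, measured 145, 140.4, 139, 185 and 155 CPM and 146, 157, 128, 120.2 and 138 CPM in young control and treadmill mice and had 0.29 (SE 0.13, 95% interval 0.025 to 0.56). The older controls were at 143, 139.8, 138, 169 and 133 CPM and the older treadmill mice at 166, 133, 178, 161 and 162 CPM, with overlap. Glucocorticoid-responsive genes had a median of -0.0035, with the pyruvate dehydrogenase kinase Pdk4 at -0.18 (SE 0.14, 95% interval -0.47 to 0.10). Without the choroid-high libraries the heat shock, unfolded protein, clock and glucocorticoid medians were 0.14, 0.13, 0.10 and 0.023. With single libraries removed the first 3 stayed positive, over 0.054 to 0.15, 0.047 to 0.17 and 0.069 to 0.17, and the last took either sign.

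Immune and metabolic lists had medians between -0.044 and 0.058 over all 20 libraries, and 6 of the 7 medians changed sign under some alternative. Interferon-stimulated genes were above control in 19 of 22 at 5 months and 17 of 22 at 20 months, with a median interaction of -0.029. Antigen presentation genes were positive in 9 of 19, with the class II chain H2-Ab1 at -1.41 (SE 0.96, 95% interval -3.43 to 0.61), and -0.69 without replicate 1 of the older controls. Glycolysis and lactate transport genes had 18 of 21 positive and a median of 0.058, and the glycolytic enzyme Pgam1 had 0.18 (SE 0.12, 95% interval -0.07 to 0.43). Nuclear-encoded respiratory chain subunits had 17 of 41 positive and a median of -0.019, Cox5a, a subunit of complex IV, having 0.15 (SE 0.084, 95% interval -0.019 to 0.33). Antioxidant genes had a median of -0.019 (catalase, Cat, -0.16 (SE 0.11, 95% interval -0.38 to 0.065)), cholesterol synthesis genes -0.03 and DNA replication genes 0.029. Without the choroid-high libraries the medians were -0.11 for interferon-stimulated, -0.12 for antigen presentation, 0.10 for glycolysis and -0.16 for respiratory chain genes. They were -0.10 for antioxidant, -0.04 for cholesterol synthesis and -0.019 for DNA replication genes. Of the 27 alternatives the sign changed in 10 for interferon-stimulated, 7 for DNA replication, 5 for cholesterol synthesis, 4 for respiratory chain, 2 for antigen presentation and 1 for antioxidant genes. The glycolysis median kept its sign in all 27, with 0.0095 to 0.094, the lowest without replicate 3 of the young controls.

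Replication-dependent histone genes had 1 of 9 tested members positive, of 15 in all, and a median of -0.45, -0.53 without the choroid-high libraries and -0.72 to -0.29, the highest without replicate 2 of the young treadmill mice, over single removals. The linker histone Hist1h1c measured 23.3, 14.1, 14.7, 14.8 and 16.02 CPM in young controls and 15.5, 43.5, 27.7, 20.2 and 17.1 CPM in young treadmill mice. Its older controls measured 19.2, 19.5, 28.9, 15.4 and 13.6 CPM and older treadmill mice 17.9, 18.8, 13.6, 14.1 and 18.2 CPM. The highest young treadmill library was replicate 2, and the interaction was -0.81 (SE 0.36, 95% interval -1.58 to -0.051), and -0.52 without replicate 2 of the young treadmill mice. Mitochondrially encoded proteins had 0 of 7 tested members positive, of 13 in all, and a median of -0.12. All 7 were above control at 5 months and below it at 20, against 26.9% of all genes. Among them mt-Nd5, a subunit of complex I, had -0.18 (SE 0.17, 95% interval -0.53 to 0.17). The list median was -0.30 without the choroid-high libraries and -0.22 to -0.022, the highest without replicate 2 of the young treadmill mice, over single removals.

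**Figure D4:**
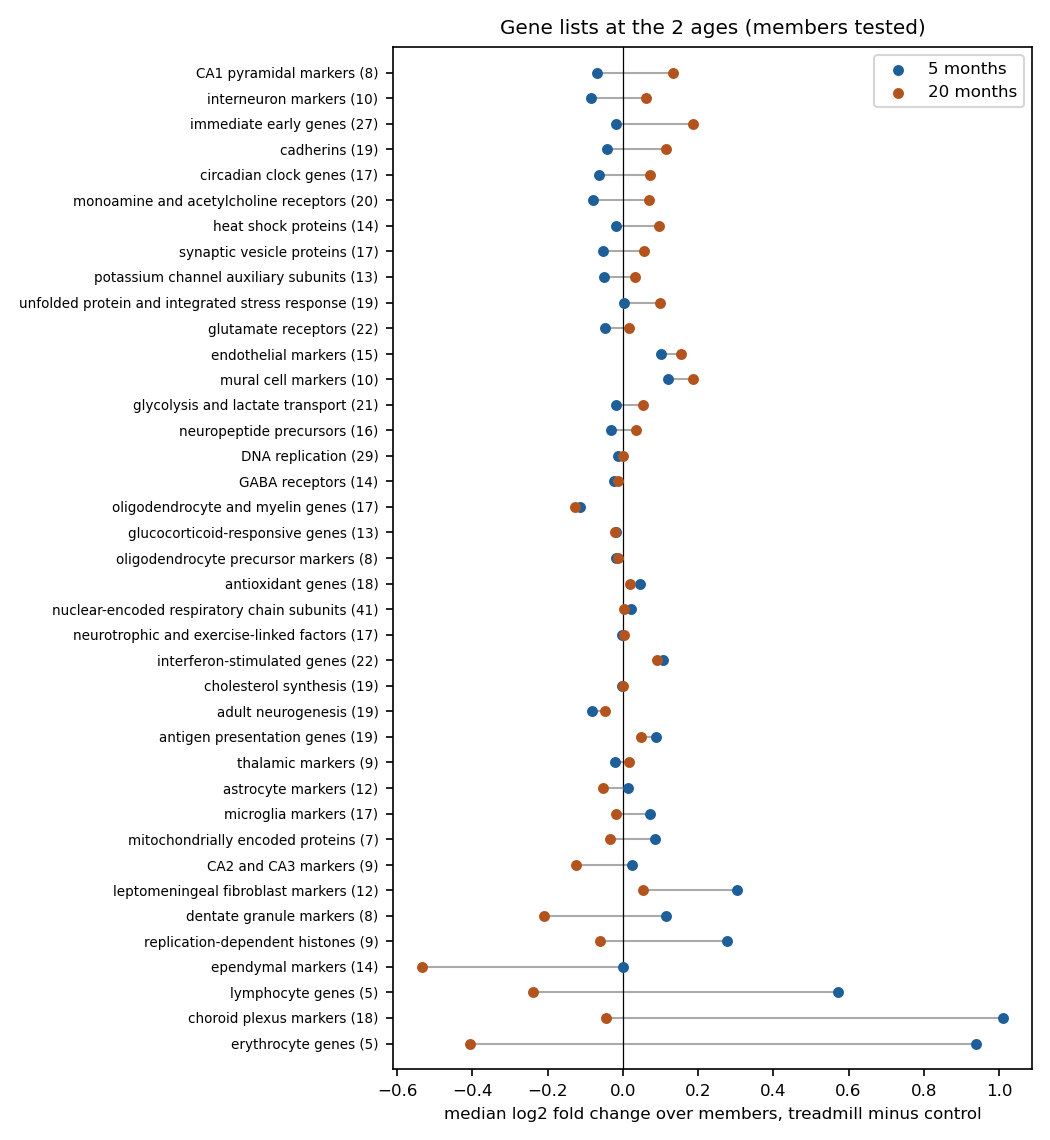
Median log2 fold change, treadmill minus control, over the tested members of each of 39 gene lists (number of members in brackets) at 5 months and at 20 months, ordered by the median interaction. CA1 markers, interneuron markers and immediate early genes are at the top, with values at 20 months to the right of those at 5 months, and erythrocyte genes, choroid plexus markers and lymphocyte genes at the bottom, with the reverse order.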

How the data were processed

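RNA-seq read counts of mouse hippocampus were analysed in 20 libraries, 5 per group, grouped by the age and perturbation labels. The authors deposited a table of raw counts per Ensembl gene, with 47729 gene rows. The kit was TruSeq RNA v2 per the labels' protocols, and bcl2fastq 1.8.2, STAR 2.4.1d, featureCounts 1.4.6-p4 and GRCm38 are named in the submitters' processing notes. Annotation, strand setting and treatment of multi-mapping reads: not given in the sources used here, so values of near-identical, overlapping and antisense genes are uncertain. Of the rows, 47224 were named by the gene name table and a further 86 by GENCODE M21. The 419 rows with no symbol held 0.0492% of counts. A second deposited table, of RPKM values, was not used because its column sums followed the count totals.

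Counts were fitted with edgeR 4.0.16 in R 4.3.3: TMM normalisation, the filterByExpr filter, robust quasi-likelihood dispersion, 1 mean per group with all 20 libraries in the model, and adjusted p-values (Benjamini-Hochberg) called under 0.05. The contrasts tested were treadmill minus control at each age and their difference. Fold changes are log2, SE was taken from the fold change and its F statistic, intervals cover 95%, and CPM use TMM library sizes. Lists are described by counts of members and medians, and the members of a list are not independent of each other. The members and the 39 gene lists were chosen with earlier results of these data known.

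The rule for named genes took the 12 smallest interaction p in each direction (clone and predicted names and means under 1 CPM left out), up to 3 members of each list by interaction p, and a panel of 16 genes. It gave 149 genes, of which the 91 described were chosen after their values were seen. Some named genes are not reported here. Libraries of a group differed by 6.03 to 54.1 in chi-square per degree of freedom, so none agreed within sampling noise. Replicate numbers only name libraries. Alternatives were other normalisation factors, other filters, DESeq2 1.42.0, a covariate holding the choroid plexus score, removal of the 5 libraries with a score above 2, and removal of each library in turn. The fit was first tested on simulated counts with known interactions. Each gene was drawn independently there, so the simulation does not cover shifts that many genes share in a library. Promoter sequences are from RefSeq.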

Additional observations from a re-analysis of the deposited data

Results flagged for a closer look

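In 36 of 392 groups of 5 libraries examined (9.18%), 1 library stood apart from the other 4, its gap to the nearest being more than 0.71 of the group's range. Chance flags about 1 in 20 groups of independent, normally distributed values. The groups here share the same libraries and their genes were chosen, so the shares cannot be compared directly.

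Among the genes with the smallest interaction p, Kctd8 was at 10.7 CPM in replicate 1 of the older treadmill group, Fam183b at 1.61 CPM and Ebf3 at 3.03 CPM in the same library. Pex11a was at 10.4 CPM in replicate 3 of that group. Arhgef37 was at 1.42 CPM in replicate 3 and Uckl1 at 25.6 CPM in replicate 2 of the older controls. Meig1 was at 2.03 CPM in replicate 1 and Tnnt1 at 1.72 CPM in replicate 3 of the young controls, each in the range of the young treadmill mice.

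Among neuronal and glial genes, Bdnf was at 61.2 CPM in replicate 5, Per1 at 47.7 CPM in replicate 2 and Sox9 at 38.2 CPM in replicate 2 of the young treadmill group. Grm8 was at 15.2 CPM in replicate 1 of the older treadmill group. Vip, Kcnab3 and Hlf were at 25.1, 35.1 and 169 CPM in replicate 4 of the older controls, above the other 4 in each gene. In the young controls, Gfap was at 530 CPM and Hist1h1c at 23.3 CPM in replicate 1, Synpo2 at 6.30 CPM in replicate 2 and Xbp1 at 86.8 CPM in replicate 5.

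Among genes of adjoining tissue and blood, Kl was at 149, 175 and 178 CPM in replicate 1 of the young controls, of the older controls and of the older treadmill group. The choroid plexus score of the same libraries was 3.50, 3.66 and 3.62, and Enpp2 was at 1597, 2238 and 2292 CPM in them. H2-Ab1 was at 3.07 CPM in replicate 1 of the young controls and 4.53 CPM in replicate 1 of the older controls, where Ak7 was at 6.60 CPM and the ependymal score at 1.29. Hba-a1, Alas2 and Hba-a2 were at 18.3, 8.25 and 10.9 CPM in replicate 2 of the older controls. Igkc was at 1.87 CPM in replicate 4 of the young treadmill group. Of the 36, 7 were in replicate 1 of the young controls, 7 in replicate 1 of the older treadmill group and 6 in replicate 1 of the older controls, which are 3 of the 5 libraries high in choroid plexus markers.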

How the results depend on the processing

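No gene was called in any of the 3 contrasts under any of the 27 alternatives. Genes with an interaction at an unadjusted p under 0.05 numbered 904 of 32175 with no filter beyond 1 count, 831 of 17219 without the 5 choroid-high libraries, and 246 to 727 when each library was left out, the highest without replicate 1 of the young controls. At 5 months the first 2 counts were 707 and 1485, and at 20 months 817 and 290. Of the 91 genes described, 8 changed sign under some alternative, and of all 149 that the rule named, 13 did. Without the 5 libraries Ntrk2 was at 0.0070, Gfap at -0.16, Kdr at 0.22, Kl at 0.030 and Enpp2 at 0.29, and Kdr was at 0.057 and Enpp2 at 0.14 with the choroid plexus score as a covariate. Over removals of single libraries Gfap ran from -0.14 to 0.12, C4b from -0.14 to 0.32, Mbp from -0.22 to 0.0084, Kdr from -0.23 to 0.066, Kl from -1.97 to 0.15, Mag from -0.012 to 0.21 and Enpp2 from -3.04 to 0.53. Leaving out 1 library moved 40 of the 91 by over 1.5 times or across 0. The medians of 21 of 39 lists kept their sign under every alternative, and those of 18 did not, the choroid plexus list among them at 0.042 with the covariate. The cause of these shifts was not tested. The median SE of the interaction was 0.43 in tested genes with a mean under 1 CPM and 0.13 in the others. No paired analysis was possible because the labels give no replicate number that is shared between the groups as a pair, and the numbers used here only name libraries.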
